A study of Mus musculus with 8 samples.

Results

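The factors that set the lifetime of AU-rich mRNAs were followed across 4 groups of dendritic cells (DCs). The set was defined by name, as the 10 symbols Zfp36, Zfp36l1, Zfp36l2, Zc3h12a, Rc3h1, Rc3h2, Btg1, Khsrp, Elavl1 and Auf1, without a threshold on their values. Of these, 9 were found among the 23356 genes of the deposited table. No gene was listed as Auf1, an older name of Hnrnpd, and the values of Hnrnpd are given as those of a related gene outside the set. All 9 reached 1 FPKM in 1 or more groups, the filter that 11397 genes passed. FPKM is a fragment count corrected for transcript length and library size, so levels can be set side by side between genes.

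The cells were bone marrow-derived DCs (BMDCs), grown with GM-CSF and IL-4 from mice of C57BL/6 background (C57BL/6N in the study's methods) that were either wild type (WT) or Arhgef2-/-. Arhgef2 encodes GEF-H1, a guanine nucleotide exchange factor that is held on microtubules, and the Arhgef2-/- cells are called GEF-H1-/- DCs here. Cells of each genotype received no treatment (control) or 100 nM ansamitocin-P3, a maytansine derivative that destabilizes microtubules, and all were collected at 5 h. Each group had 2 of the 8 RNA-seq libraries. The deletion came with the marrow, so the precursors lacked GEF-H1 during the whole culture. The study's methods describe sex-matched adult mice, and the labels state neither an age nor the number of mice, nor whether the 2 libraries of a group came from separate cultures.

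Cuffdiff had combined the libraries of a group into 1 FPKM value with a 95% interval, and the spread between duplicates was not analysed here. The comparisons therefore carry no SD and no p-value, and the Cuffdiff interval, given in square brackets as its lower and upper bound, stands as the error. Arhgef2 itself was at 42.3 [34.5, 50] and 45.9 [36.9, 54.9] FPKM in control and treated WT DCs, against 4.59 [3.54, 5.63] and 4.16 [3.22, 5.11] in GEF-H1-/- DCs. All 9 listed dendritic cell markers were measured, and none of them was at 0. They summed to 5783 and 7191 FPKM in control and treated WT DCs and to 4830 and 5168 FPKM in GEF-H1-/- DCs. In control cells their median difference, GEF-H1-/- minus WT, was log2 -0.28, with 2 of 9 higher and 0 with intervals apart. Neutrophil markers summed to 30714 and 36150 FPKM in control and treated WT DCs but to 21129 and 21575 FPKM in GEF-H1-/- DCs. S100a8 and S100a9 made up most of this sum. In control cells S100a8 was lower in GEF-H1-/- DCs (log2 -0.84) and S100a9 was nearly level (-0.09), but S100a8 lay above its own interval in every group. Camp and Ltf were lower in control GEF-H1-/- DCs (-3.57 and -1.46) and Mpo was higher (1.23), each with intervals apart. Elane was at 1.11, but its control intervals were wide and overlapped, at [0, 93.1] FPKM in WT and [0, 152] FPKM in GEF-H1-/- DCs. Macrophage and monocyte markers summed to 231, 415, 272 and 261 FPKM in control WT, treated WT, control GEF-H1-/- and treated GEF-H1-/- DCs. The higher sum in treated WT DCs came from Cd14 (14.7 FPKM in control and 250 FPKM in treated WT DCs), while Emr1, Csf1r, Mertk and Cd68 had effects from -1.86 to -0.1. Mast cell and basophil markers summed to 114, 117, 210 and 201 FPKM in the same order. Lymphocyte markers (4.46 to 8.86 FPKM) and stromal markers (0.395 to 3.68 FPKM) were low in every group. The part of other cell types in the values that follow was not tested, and in such bulk samples fewer cells of a type and less RNA per cell cannot be told apart.

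Many mRNAs of cytokines, chemokines and early response genes carry AU-rich elements in their 3′ untranslated region (UTR) and are short-lived for that reason. Tristetraprolin (Zfp36) and its paralogs Zfp36l1 and Zfp36l2 bind these elements through paired zinc fingers and recruit the CCR4-NOT deadenylase, which shortens the poly(A) tail. Regnase-1 (Zc3h12a) cleaves mRNAs at stem-loops, and Roquin-1 and Roquin-2 (Rc3h1 and Rc3h2) bind stem-loops and recruit the decay machinery. BTG1 links mRNAs to the CAF1 deadenylase, KSRP (Khsrp) promotes decay of AU-rich mRNAs, and HuR (Elavl1) binds the same elements and stabilizes the mRNAs. In DCs and macrophages this layer limits how long inflammatory mRNAs last after their genes are switched on.

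Several of these factors are themselves encoded by AU-rich mRNAs. The heptamer TATTTAT, the core of the site that tristetraprolin binds, was counted in the longest annotated 3′ UTR of each gene (GENCODE M21, GRCm38), a count made after the expression values were known. It occurred 3 times in each of Zfp36, Zfp36l1, Zfp36l2 and Rc3h2, 2 times in Rc3h1 and 8 times in Elavl1. Zc3h12a, Btg1 and Khsrp had 0. Thus 6 of the 9 genes held at least 1 heptamer, against 29.9% of the 10318 tested genes with a matched UTR. This share was not adjusted for UTR length, which had a median of 1133 bases over those genes. Only Zfp36 (774 bases) and Zc3h12a (856 bases) lay below that median, and the other members ran from 1642 (Khsrp) to 7181 bases (Rc3h1). One window of 27 bases is shown for each tristetraprolin family gene and for Elavl1, since these show the element that the proteins of the set bind. Each window was picked around a heptamer with T on both sides and, among such sites, for the most ATTTA pentamers. The windows are therefore the most AU-rich sites by this rule and not typical ones. All 4 lie on the minus strand and are written 5′ to 3′ along the mRNA as DNA, with the heptamer in capitals.
Zfp36 (chr7:28376952-28376978): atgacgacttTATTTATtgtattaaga
Zfp36l1 (chr12:80108168-80108194): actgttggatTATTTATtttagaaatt
Zfp36l2 (chr17:84184915-84184941): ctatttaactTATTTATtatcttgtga
Elavl1 (chr8:4285785-4285811): gaaaatTATTTATTTATTTATTTATtt
The family genes each show 1 heptamer in the window, while the window of Elavl1 is a run of 4 overlapping heptamers.

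The 250 bases before the annotated start are shown for Zfp36, Zfp36l1 and Btg1, the genes with the largest drug effects of the set (RefSeq, GRCm38.p6). Of the 9 genes, 8 had an entry in the promoter table and Zfp36l2 had none. Capitals mark matches on either strand to the motifs searched: AP-1 (TGANTCA), the CRE (TGACGTCA), its shorter core (TGACG, which overlaps the full CRE), TATAAA, the CArG box bound by SRF, and an NF-κB consensus.
Zfp36 (chr7:28379229-28379478, minus strand): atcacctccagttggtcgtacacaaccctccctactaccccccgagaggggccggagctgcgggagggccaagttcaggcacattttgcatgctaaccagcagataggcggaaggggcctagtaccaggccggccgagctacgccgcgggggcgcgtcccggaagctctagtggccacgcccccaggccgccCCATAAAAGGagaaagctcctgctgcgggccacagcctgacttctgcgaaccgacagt
Zfp36l1 (chr12:80113014-80113263, minus strand): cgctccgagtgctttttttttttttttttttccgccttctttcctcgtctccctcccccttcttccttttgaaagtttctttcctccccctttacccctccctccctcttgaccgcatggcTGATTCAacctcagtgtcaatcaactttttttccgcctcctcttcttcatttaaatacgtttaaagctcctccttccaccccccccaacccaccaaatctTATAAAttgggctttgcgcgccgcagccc
Btg1 (chr10:96616751-96617000, plus strand): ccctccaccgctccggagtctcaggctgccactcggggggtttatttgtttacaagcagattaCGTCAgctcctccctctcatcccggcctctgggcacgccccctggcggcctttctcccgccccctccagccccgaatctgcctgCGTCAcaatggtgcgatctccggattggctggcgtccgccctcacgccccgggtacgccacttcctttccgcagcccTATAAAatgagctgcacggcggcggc
Zfp36 had a CArG box that began 58 bases before the start, a motif found in 1.47% of 32851 promoters and in 1.11% of the 10874 promoters of tested genes. Zfp36l1 had an AP-1 match at 129 bases and TATAAA at 29 bases before the start, motifs held by 6.75% and 12.4% of all promoters and by 4.63% and 6.22% of those of tested genes. Btg1 had TATAAA at 26 bases and CRE cores at 187 and 103 bases, the latter motif occurring in 17.8% of all promoters and 26.9% of those of tested genes. The 3 promoters therefore shared no motif other than TATAAA in a pair of them. Elsewhere in the set, Rc3h1 held an AP-1 match and Khsrp held CRE cores, while the full CRE (1.55% of promoters) and the NF-κB consensus (3.9%) were found in 0 of 8. A match describes letters in this window and is not evidence of a bound site.

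In control WT DCs the 9 genes spanned from 143 to 4.62 FPKM. Btg1 at 143 [102, 165] and Zfp36l1 at 116 [83.5, 134] were highest and their intervals overlapped. Zfp36l2 at 78.1 [51.4, 82.3], Zfp36 at 63.2 [46, 74.2] and Khsrp at 42 [32.9, 50.7] followed, each overlapping the next. Elavl1 at 16.9 [12.5, 20.1] and Zc3h12a at 12.8 [10.3, 15.2] overlapped each other and lay below these. The Roquin genes were lowest, with 6.5 [4.89, 7.92] FPKM for Rc3h1 and 4.62 [3.35, 6.02] for Rc3h2. The mRNAs of the tristetraprolin family together held 257 FPKM, of which Zfp36l1 made up 45.1%. The order was the same in control GEF-H1-/- DCs, where the 4 highest each overlapped the next. In treated WT DCs Zfp36 stood above Zfp36l2 without overlap and Zc3h12a above Elavl1 with overlap, and in treated GEF-H1-/- DCs Zfp36l1 stood highest, overlapping Btg1.

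**Figure D1:**
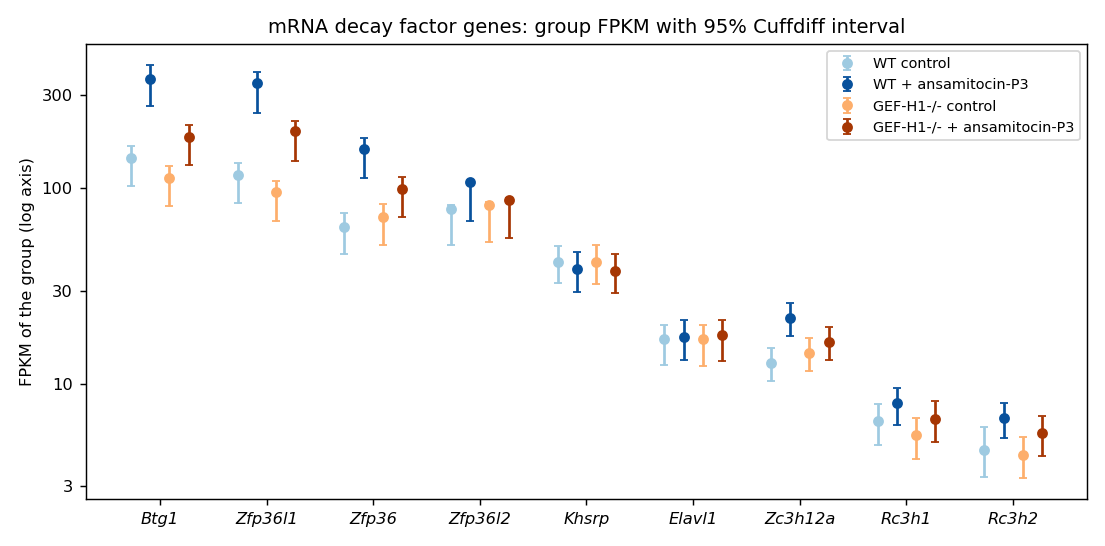
FPKM (log axis) of the 9 genes in the 4 groups; points are the group values and bars the 95% Cuffdiff intervals, each from 2 combined libraries. Btg1, Zfp36l1 and Zfp36 stand highest in treated WT DCs, with treated GEF-H1-/- DCs between these and the controls, while Khsrp and Elavl1 are level across the groups.

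The first comparison asked how these mRNAs responded to ansamitocin-P3 in WT DCs. Zfp36, Zfp36l1 and Btg1 were more than 2-fold higher in treated cells, Zc3h12a was higher by less, and the Roquin, Khsrp and Elavl1 mRNAs overlapped their control intervals. Effects are log2 ratios of FPKM + 1, treated over control. Past 2-fold, 3 of the 9 genes were higher and 0 lower, where 3.66% of all tested genes were higher and 1.28% lower. The intervals of control and treated cells were apart for 4 of the 9, all higher, against 9.19% of all tested genes. The median effect of the 9 genes was 0.45 and that of all tested genes 0.

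Zfp36 (chr7:28376784-28379228), the tristetraprolin gene, measured 63.2 [46, 74.2] FPKM in control WT and 158 [113, 180] FPKM in treated WT DCs. The GEF-H1-/- values were 71.1 [51.3, 82.8] FPKM without and 98.9 [70.9, 114] FPKM with the drug. Treated WT DCs thus stood apart from both control groups, and treated GEF-H1-/- DCs overlapped every other group. The effect on Zfp36 was 1.31 in WT DCs, at place 227 of 11397 from the highest, and 0.47 without GEF-H1.

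Zfp36l1 (chr12:80107760-80113013), a paralog of tristetraprolin, measured 116 [83.5, 134] FPKM in control WT and 345 [243, 392] FPKM in treated WT DCs. The GEF-H1-/- values were 96.1 [68, 109] FPKM without and 195 [137, 221] FPKM with the drug. The treated groups lay above their own controls and did not overlap each other. Its effect was 1.56 with and 1.02 without GEF-H1, ranks of 150 and 92 among all tested genes.

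Zfp36l2 (chr17:84183928-84187947), the third family gene, was at 78.1 [51.4, 82.3] and 107 [67.6, 108] FPKM in control and treated WT DCs. In GEF-H1-/- DCs it was at 81.8 [52.8, 84.6] and 86.8 [55.3, 88.6] FPKM. All 4 intervals overlapped, with effects of 0.44 with and 0.08 without GEF-H1, and each value sat near the upper end of its own interval. The family sum was 257 FPKM in control and 609 FPKM in treated WT DCs (2.37-fold), against 249 and 381 FPKM without GEF-H1 (1.53-fold). The share of Zfp36l1 in that sum was 56.6% in treated WT and 51.3% in treated GEF-H1-/- DCs, above 45.1% and 38.6% in the controls. The family therefore differed among its own members: the ratio of Zfp36 to Zfp36l2 was 0.810 in control and 1.48 in treated WT DCs, against 0.869 and 1.14 without GEF-H1.

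Zc3h12a (chr4:125118414-125127881), which encodes the endonuclease Regnase-1, was at 12.8 [10.3, 15.2] FPKM in control and 21.8 [17.6, 26] in treated WT DCs. In GEF-H1-/- DCs it was at 14.4 [11.7, 17.2] and 16.4 [13.3, 19.6] FPKM. The treated WT value was 1.71-fold over its control with intervals apart, whereas the GEF-H1-/- intervals overlapped. The effects were 0.73 and 0.17.

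Of the Roquin genes, Rc3h1 (chr1:160906411-160974976) was at 6.5 [4.89, 7.92], 7.96 [6.19, 9.59], 5.48 [4.14, 6.71] and 6.60 [5.03, 8.14] FPKM in control WT, treated WT, control GEF-H1-/- and treated GEF-H1-/- DCs. Rc3h2 (chr2:37370071-37422903) was at 4.62 [3.35, 6.02], 6.67 [5.29, 8.03], 4.36 [3.30, 5.35] and 5.59 [4.28, 6.90] FPKM in the same order. Control and treated intervals overlapped for both genes in both genotypes. Effects were 0.26 and 0.45 in WT and 0.23 and 0.30 in GEF-H1-/- DCs, so these genes differed less between genotypes than Zfp36, Zfp36l1 or Btg1 did.

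Btg1 (chr10:96617001-96622811), an antiproliferative gene whose product binds CAF1, was the highest of the set in treated WT DCs. It measured 143 [102, 165] FPKM in control and 360 [262, 427] FPKM in treated WT DCs. The GEF-H1-/- values were 113 [80.8, 130] FPKM without and 183 [131, 211] FPKM with the drug. As with Zfp36l1, treated cells lay above their own controls in both genotypes and the treated groups did not overlap. The effects were 1.32 and 0.70, ranks of 222 and 221.

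The proteins that bind AU-rich elements without zinc fingers of this kind showed no such difference. Khsrp (chr17:57021049-57031507) was at 42 [32.9, 50.7], 38.6 [29.4, 47.1], 41.9 [32.5, 51] and 37.6 [29.1, 46.1] FPKM in control WT, treated WT, control GEF-H1-/- and treated GEF-H1-/- DCs. Elavl1 (chr8:4284782-4325100) was at 16.9 [12.5, 20.1], 17.4 [13.2, 21.2], 16.9 [12.4, 20] and 17.7 [13.1, 21.2] FPKM. Effects were -0.12 and -0.15 for Khsrp and 0.04 and 0.07 for Elavl1, and all intervals of a gene overlapped. Hnrnpd (chr5:99955936-99978938), which encodes AUF1 and is outside the set, was at 38 [30.2, 50.2], 33.2 [25.7, 40], 42.3 [31.6, 52.2] and 41 [30.9, 49.5] FPKM, also with overlap throughout. The level of Zfp36 relative to Elavl1 was 3.75 in control and 9.09 in treated WT DCs, and 4.21 and 5.59 in GEF-H1-/- DCs. For Zfp36l1 relative to Elavl1 the ratios were 6.88 and 19.8 in WT and 5.69 and 11 in GEF-H1-/- DCs.

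**Figure D2:**
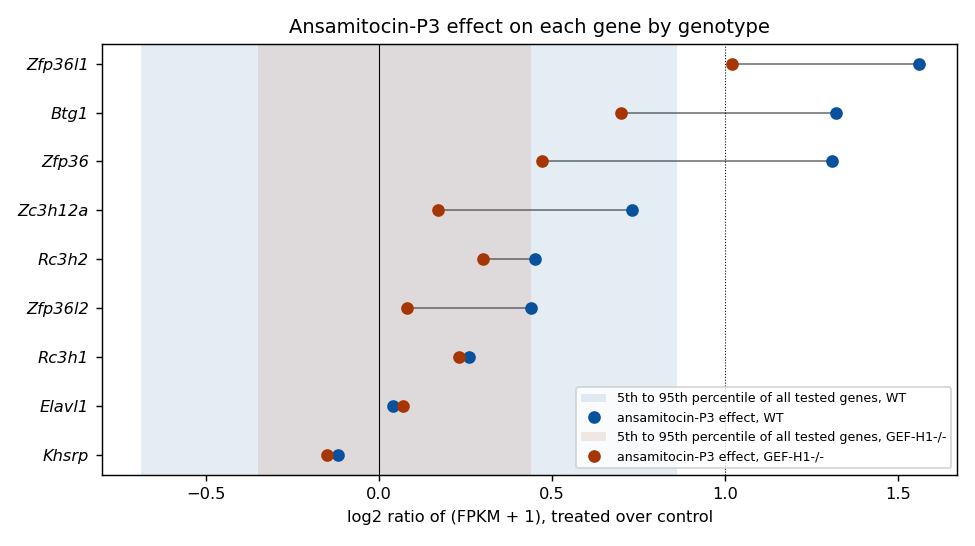
Drug effect (log2 ratio of FPKM + 1, treated over control) of each gene in WT (blue) and GEF-H1-/- DCs (red-brown), joined by a line; shaded bands span the 5th to 95th percentile of all tested genes and the dotted line marks 2-fold. Zfp36l1, Btg1 and Zfp36 lie past 2-fold in WT DCs, and of these Zfp36l1 does so narrowly in GEF-H1-/- DCs (1.02, but 0.99 with a pseudocount of 5 FPKM).

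The second comparison asked what the drug did without GEF-H1. In GEF-H1-/- DCs 1 of the 9 genes, Zfp36l1, was past 2-fold higher, where 0.807% of all tested genes were, and 0 were past it lower (0.272%). Its effect lay close to the limit, at 1.02, and with a pseudocount of 5 FPKM it was 0.99, which ends the call. At 1.5-fold there were 2, Zfp36l1 and Btg1, against 2.78%. Intervals were apart for Zfp36l1 and Btg1, both higher, against 2.75% of all tested genes. The median effect was 0.23 for the 9 genes and -0.01 for all tested genes. As a share of the WT effect on the log2 scale, the GEF-H1-/- effect was 65.1% for Zfp36l1, 52.5% for Btg1, 36.0% for Zfp36 and 24% for Zc3h12a. In FPKM, Zfp36l1 gained 229 in WT and 99.3 in GEF-H1-/- DCs, Btg1 217 and 70.4, and Zfp36 94.9 and 27.9.

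The difference between the drug effects, GEF-H1-/- minus WT, was -0.84 for Zfp36, -0.63 for Btg1, -0.55 for Zfp36l1 and Zc3h12a and -0.36 for Zfp36l2. For Rc3h2 it was -0.15, for Rc3h1 and Khsrp -0.03, and for Elavl1 0.02. None of the 9 genes passed 2-fold here (0, where 1.9% of all tested genes did), and 2 of them, Zfp36 and Btg1, passed 1.5-fold lower, against 4.83%. This difference has no interval of its own and was not tested.

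The genotypes were also compared at each condition, which uses the same 4 values again and is not independent of the drug effects. In control cells 0 of the 9 genes had intervals apart, where 4.74% of all tested genes did, and 0 were past 2-fold (1.88%). Btg1 had the lowest value, -0.34, and Zfp36 and Zc3h12a the highest, 0.17 each. After ansamitocin-P3, Btg1 was at 0.509-fold (log2 -0.97) and Zfp36l1 at 0.567-fold (log2 -0.82) of the treated WT level with intervals apart. Those 2 genes stand against 6.73% of all tested genes that were lower with intervals apart. Zfp36 was at 0.626-fold (log2 -0.67), but the interval in treated GEF-H1-/- DCs [70.9, 114] reached that in treated WT DCs [113, 180]. None was past 2-fold (0, against 4.06%). The 9 genes had medians of 0 in control and -0.29 in treated cells, where all tested genes had -0.01 and -0.03.

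The relatives of these factors and the machinery they recruit were described from lists written by hand, with earlier results of these data known. Among BTG and TOB genes, which encode adaptors of the CAF1 deadenylase, 5 of 6 were tested, Btg1 of the set included. The median effect was 1.20 with and 0.16 without GEF-H1, but the former is the value of Btg3 itself, and over the other 4 genes the medians were 1.07 and 0.42, a choice made after the values were seen. Btg2 measured 30.4 [22.4, 36] and 129 [95.1, 152] FPKM in control and treated WT DCs and 28.4 [20.7, 33.5] and 46.2 [33.7, 54.2] FPKM in control and treated GEF-H1-/- DCs. These are effects of 2.05 and 0.69. Like Btg1, Btg2 was thus above its control without overlap in both genotypes and lower in treated GEF-H1-/- than in treated WT DCs, there by a log2 difference of -1.46. Tob2 measured 18.4 and 33.1 FPKM in control and treated WT DCs, with intervals apart, and 17.3 and 19.5 FPKM in control and treated GEF-H1-/- DCs. Btg3 passed 2-fold higher in WT (1.20) and lower in GEF-H1-/- DCs (-1.45), but its intervals were wide and overlapped in every comparison. All 5 genes were over 1.5-fold lower in treated GEF-H1-/- than in treated WT DCs, where 7.48% of all tested genes were, and 4 of them, Btg1, Btg2, Tob1 and Tob2, had intervals apart.

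Among Regnase family genes and their regulators, 7 of 8 were tested, with medians of 0.50 in WT and 0.18 in GEF-H1-deficient cells. Malt1, which encodes the paracaspase that cleaves Regnase-1, was the single gene past 2-fold, at 45.3 [36.2, 54.5] and 105 [85.3, 125] FPKM in WT and at 43.2 [34.5, 51.9] and 71.5 [57.3, 85.7] FPKM in GEF-H1-/- DCs. Its effects of 1.20 and 0.71 were both with intervals apart. N4bp1, another endonuclease-domain gene, had effects of 0.69 (intervals apart) and 0.18, close to those of Zc3h12a. Zc3h12c had 0.46 with and 0.56 without GEF-H1, with overlap in WT DCs and intervals narrowly apart in GEF-H1-/- DCs. Zc3h12d was lower with the drug in WT DCs, at -0.63 with intervals apart.

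The AU-rich element binders and the common decay machinery were counted next, with Khsrp and Elavl1 of the set among the 7 tested binders. None of the 7 binders, 15 deadenylase genes or 17 decapping genes was past 2-fold in either drug comparison (0 in each list). None of them had intervals apart there either. Of all tested genes, 4.94% passed 2-fold in WT and 1.08% in GEF-H1-deficient cells, so counts of 0 past 2-fold are near the background in lists of this size. Intervals were apart for 16.8% of all tested genes in WT and for 3.7% in GEF-H1-deficient cells. The counts of 0 on that rule lie below the WT share, but a list of 7 genes is too short to set 0 apart from it. The median effects of binders, deadenylases and decapping genes in WT DCs were -0.12, 0.07 and -0.07. The extremes in WT DCs were Tia1 (-0.53) and Celf1 (0.45) among the binders, Parn (-0.46) and Cnot7 (0.64) among the deadenylases, and Lsm6 (-0.44) and Ddx6 (0.41) among the decapping genes. Exosome genes had a median of -0.16, and Exosc7 was lower in WT DCs at -0.87 with intervals apart. Cnot7, which encodes the CAF1 that BTG proteins bind, was at 23.9 [16, 30.5] and 37.9 [25.8, 49.9] FPKM in control and treated WT DCs. In the list of the p38 kinase arm, which phosphorylates tristetraprolin and keeps it inactive, 8 of 9 genes were tested, with medians of 0.36 and 0.03. The list also holds the phosphatase gene Dusp1 and the adaptor genes Ywhab and Ywhaz, so its median is not that of the kinases. Mapk14, the gene of a p38 kinase, had effects of -0.75 (intervals apart) in WT and -0.48 in GEF-H1-/- DCs. Mapkapk3 had 0.72 (intervals apart) and 0.17. Dusp1, the phosphatase that switches off p38, measured 14.3 [10.3, 18.3] and 128 [90.9, 146] FPKM in control and treated WT DCs. It measured 15 [10.7, 19] and 78.3 [56.5, 90.7] FPKM in control and treated GEF-H1-/- DCs. Map2k6, an upstream kinase of p38, was past 2-fold lower in WT DCs, with effects of -1.20 there and -0.82 without GEF-H1. It was at 1.91 and 0.269 FPKM in control and treated WT DCs and at 1.54 and 0.437 FPKM in GEF-H1-/- DCs. Map2k6 thus reached 1 FPKM only without the drug, and its place among the tested genes depended on its control values.

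**Figure D3:**
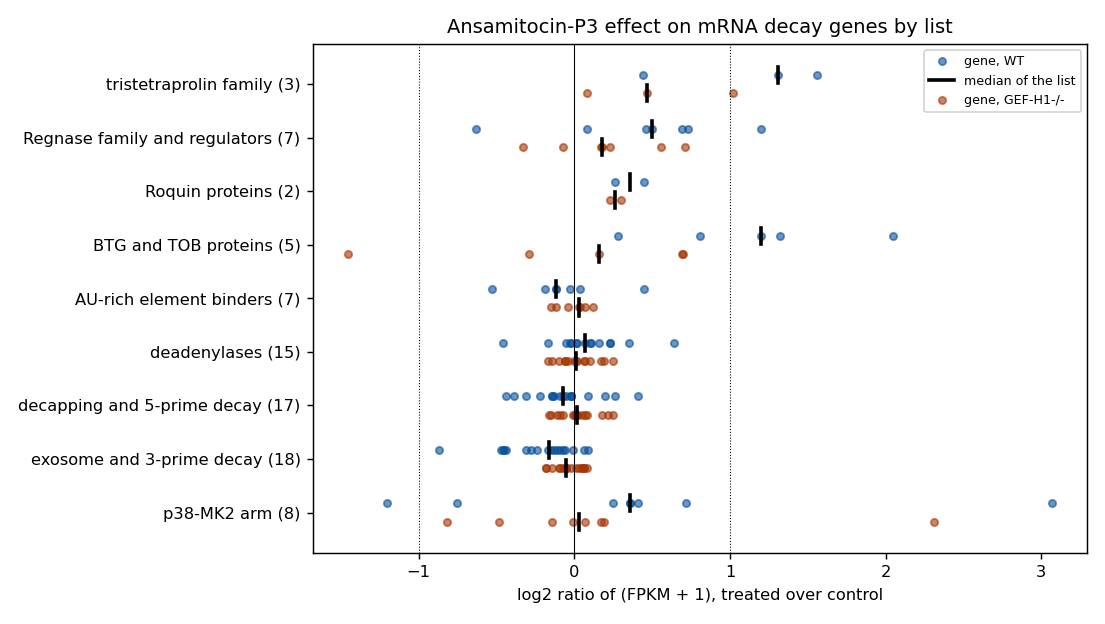
Drug effect (log2 ratio of FPKM + 1, treated over control) of every tested gene of 9 lists in WT (blue) and GEF-H1-/- DCs (red-brown); black bars are list medians, dotted lines mark 2-fold and numbers in brackets count genes. The tristetraprolin family and the BTG and TOB genes have WT medians of 1.31 and 1.20 (for the latter 1.07 without Btg3), while those of binders, deadenylases, decapping and exosome genes lie between -0.16 and 0.07.

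The mRNAs that these factors are known to act on were counted in the same way. Of 18 listed mRNAs bound by tristetraprolin, 14 were tested, and 9 were past 2-fold higher in WT DCs: Il6, Il1a, Il1b, Cxcl2, Ccl2, Ccl3, Ier3, Ptgs2 and Vegfa, where 3.66% of all tested genes were. The list, like that of Regnase-1 and Roquin targets below, was written with earlier results of these data known. Its count and the share over all genes are therefore no independent comparison. Effects were above 0 for 11 of the 14, while Csf2 (-0.13), Ifng (-0.13) and Myc (-0.31) were lower with overlap. Ptgs2, at 0.306 and 0.776 FPKM in control WT and GEF-H1-/- DCs, reached 1 FPKM only with the drug. Its place among the tested genes, here and among the Regnase-1 and Roquin targets below, thus depended on its treated values. The median effect was 1.89 with GEF-H1 and 0.66 without it, where 5 passed 2-fold higher, against 0.807% of all tested genes. Vegfa had effects of 1.95 and 0.82 and Ier3, an early response gene, 1.07 and 0.22. Tnf, the classical tristetraprolin target, was at 13.4 [10.3, 16.4] and 18.9 [14.6, 23] FPKM in WT and at 16.2 [12.7, 19.8] and 22.9 [18, 27.8] in GEF-H1-/- DCs, 0.47 in both genotypes with overlap. All 10 listed targets of Regnase-1 and Roquin were tested, with medians of 0.60 and 0.45, and the lists share Il6, Tnf and Ptgs2. Past 2-fold higher in WT DCs were Il6, Ptgs2 and Rel (1.13, against 0.77 in GEF-H1-/- DCs). Tfrc, the transferrin receptor mRNA whose stem-loops Regnase-1 cleaves, was lower with the drug, at 89.2 [67, 108] and 28.3 [22.2, 34.2] FPKM in control and treated WT DCs and 83.5 [62.8, 101] and 63.7 [48.5, 77.7] FPKM in GEF-H1-/- DCs.

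Over all genes, the share past 2-fold higher in treated WT DCs was 2.85% for 7236 genes without the heptamer, 4.67% for 2011 genes with 1, 5.35% for 673 with 2 and 8.54% for 398 with 3 or more. In GEF-H1-/- DCs the shares were 0.401%, 0.895%, 0.892% and 2.26%. UTR length moved with the count, from a median of 838 bases without the heptamer to 3246 bases with 3 or more. The WT shares within 3 classes of UTR length are given under the other observations, and the part of length was not tested. Zfp36, Zfp36l1 and Zfp36l2 are among the genes with 3, and Btg1 is among those without.

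**Figure D4:**
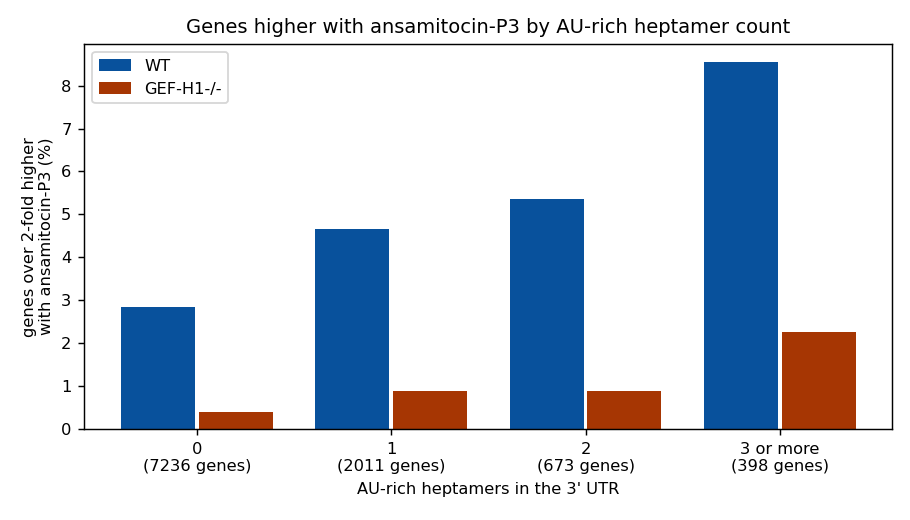
Percentage of tested genes past 2-fold higher with ansamitocin-P3 in WT (blue) and GEF-H1-/- DCs (red-brown), by the number of TATTTAT heptamers in the 3′ UTR; bars start at 0 and gene numbers stand under each bin. The WT share goes from 2.85% without the heptamer to 8.54% with 3 or more.

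The genes whose profile over the 4 groups lay closest to those of Zfp36, Zfp36l1 and Btg1 were sought among 8408 genes with a mean of at least 5 FPKM, by the Euclidean distance of centred log2(FPKM + 1) values. Closest to Zfp36 was Lima1, which encodes an actin-binding protein, at a distance of 0.0496 and with 20.4, 52.9, 22.3 and 32.4 FPKM in control WT, treated WT, control GEF-H1-/- and treated GEF-H1-/- DCs. Pde8a (0.062) and Myadm (0.0907) followed. Closest to Zfp36l1 was Basp1 (0.067), with 174, 494, 145 and 281 FPKM, then Arap2 (0.102) and Zswim4 (0.11). Closest to Btg1 was Rrad (0.065), with 3.47, 10.6, 2.49 and 4.58 FPKM, then Sema7a (0.0994) and Rab11fip1 (0.116). With 4 points per gene, such closeness is a description only. Among the members themselves, Btg1 and Zfp36l1 were 0.305 apart, Zfp36 and Btg1 0.433, and Zfp36 and Zfp36l1 0.515, so the paralogs were less alike in profile than the unrelated Zfp36l1 and Btg1.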

How the data were processed

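RNA-seq libraries of BMDCs (8, with 2 in each of 4 groups) were strand-specific and made from polyadenylated RNA, and the submitters' processing notes name Cuffdiff (1.05) and mm10. The deposited table holds FPKM that the authors computed with Cuffdiff, 1 value per gene and group with the bounds of a 95% interval and a status. Combining the libraries hides the duplicates, and FPKM keeps no read number, so the depth is unknown. The aligner and annotation behind this table are not given in the sources used here. Columns of WT cells name no genotype and were assigned by elimination. No column was left unused (0). Sums of FPKM ran from 599331 to 739523.

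Genes with a status other than OK in any group (107) or under 1 FPKM in every group were left out, which left 11397. Effects were log2 ratios of FPKM + 1, where the added 1 shrinks low genes. A gene was called past 2-fold (log2 over 1 or under -1), or when the Cuffdiff intervals did not overlap. No test was run, since each group has 1 value. Between 0.983% and 1.2% of tested genes lay outside their own interval, 0 of the 9 members among them. Named were all members, Arhgef2, in each list the genes past 2-fold or else the extremes, and the 3 nearest profiles of members past 2-fold in WT DCs; other named list genes were chosen after their values were seen. Members and lists were chosen with earlier results of these data known. The computation was tested on simulated data. Motifs were searched in RefSeq promoters (GRCm38.p6), and heptamers in GENCODE M21 UTRs of 10318 genes (90.5%), added after the values were seen. Python 3.11.15, pandas 2.3.3 and numpy 2.4.6 were used. Alternatives were other pseudocounts, filters, scaling and call rules.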

Additional observations from a re-analysis of the deposited data

Results flagged for a closer look

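Btg3, of the BTG and TOB list, had drug effects of opposite direction in the genotypes, 1.20 in WT and -1.45 in GEF-H1-/- DCs, a difference of -2.65 on the log2 scale. It was at 4.59 [0.557, 8.63] and 11.8 [0.756, 22.9] FPKM in control and treated WT DCs and at 5.86 [2.19, 9.56] and 1.5 [0, 3.91] FPKM in control and treated GEF-H1-/- DCs. All 4 intervals overlapped and the difference was not tested.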

How the results depend on the processing

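No paired analysis was possible because the pooled columns carry no replicate numbers, and for the same reason no replicate could be left out. Of 225 log2 values of members recomputed with other pseudocounts, filters and scaling, 0 changed sign, and the largest move was 0.17. Many of these signs were fixed in advance. A filter does not alter the value of a gene, and a pseudocount cannot reverse a comparison of 2 groups. Only the scaling and the difference of effects left room for a change of sign. Of 70 recomputed counts, 49 stayed within 1.5 times. The counts over all tested genes were 563 for the drug in WT, 123 for the drug in GEF-H1-/- DCs, 214 between controls, 463 between treated cells and 216 for the difference of effects. In that order, a pseudocount of 0.1 FPKM gave 956, 212, 372, 801 and 387 genes, and one of 5 FPKM gave 318, 77, 101, 206 and 123. With 5 FPKM, 0 members were past 2-fold in GEF-H1-/- DCs, so the call of Zfp36l1 there rests on the smaller pseudocount. When intervals also had to be apart, 70 genes were called in GEF-H1-/- DCs and 141 for the difference. Since the difference has no interval, the rule there asked for intervals apart in the drug comparison of either genotype. At 1.5-fold the counts were 2017, 454, 600, 1687 and 935, with 2 members higher in GEF-H1-/- DCs (Zfp36l1 and Btg1), 3 lower between treated cells (Zfp36, Zfp36l1 and Btg1) and 2 for the difference (Zfp36 and Btg1). Scaling used factors from 0.995 to 1.01. Depth is unknown, so the precision of single values rests on the Cuffdiff intervals alone.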

Other observations

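The RNA exosome, which degrades mRNA from the 3′ end once the tail is gone, had the lowest median effect of the decay lists in WT DCs. Of its 18 genes, 16 had negative effects there, as did 49.6% of all tested genes, with a median of -0.16 against -0.05 in GEF-H1-/- DCs, and 0 were past 2-fold. Exosc7, a core subunit, measured 24.9 [19.7, 29.9] and 13.1 [10.2, 16.1] FPKM in control and treated WT DCs. The GEF-H1-/- values were 29.2 [23.5, 34.9] FPKM without and 25.6 [20.6, 30.7] FPKM with the drug. Between treated cells, Exosc2 (0.72), Exosc7 (0.91), the catalytic Dis3 (0.85) and Ttc37 (0.55) were higher in GEF-H1-/- DCs with intervals apart, 4 of 18 where 7.02% of all tested genes were. Genotypes differed in the same direction in control cells for 17 of the 18, with a median of 0.16, where 47.7% of all tested genes were higher in GEF-H1-/- DCs.

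Zfp36, Zfp36l1, Zfp36l2 and Btg1 have 2 exons each in the longest-UTR transcript of their gene, as do 4.82% of tested genes with a matched UTR, where the median is 9. Among those 497 genes, 5.43% were past 2-fold higher with the drug in WT DCs, against 3.59% of all matched genes. The other members had 6 (Zc3h12a and Elavl1), 18 (Khsrp), 20 (Rc3h1) and 22 exons (Rc3h2). When the genes were split into 3 equal classes by UTR length, the share of genes past 2-fold higher in WT DCs was 6.45% with and 2.32% without the heptamer for the shortest UTRs, 6.2% and 3.25% for the middle class, and 4.67% and 3.22% for the longest.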
